A study of Mus musculus with 6 samples.

Results

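The chemokines that draw monocytes into tissue and the receptors that answer them were followed in infarcted mouse hearts. The set held 8 genes, chosen by symbol, of the 26012 genes in the deposited expression table. They were the chemokines Ccl2, Ccl7, Ccl8 and Ccl12, the receptors Ccr2 and Ccr1, and the ligand Cx3cl1 with its receptor Cx3cr1. Each symbol matched 1 row, and all 8 genes passed the filter on low values (a mean of at least 1 normalized count over the hearts).

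Chemokines are small secreted proteins that bind G protein-coupled receptors on leukocytes and set the direction in which the cells move. Ccr2 marks classical, Ly6C-high monocytes and is required for their release from bone marrow and entry into inflamed tissue, including the infarcted heart. Cx3cl1 (fractalkine) is made as a membrane-bound adhesion molecule, mainly by endothelial and other tissue cells, from which a soluble chemokine is cut, while Cx3cr1 marks non-classical monocytes and many tissue macrophages.

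RNA-seq had been run on ventricular tissue of 6 male C57BL/6 mice, aged 8 weeks at surgery, in which the left anterior descending artery was ligated to cause a myocardial infarction (MI). Every heart received 10 μg of synthetic microRNA into the heart wall, a control mimic in 3 mice or miR-19a/miR-19b mimic in 3 mice, and was collected on day 4 after MI. Both groups had the infarct and the injection, and no uninjured heart was among the samples. The comparison is therefore between the mimic groups and cannot show an effect of the infarct or of the injection. It asks which transcripts differed between miR-19a/19b mimic and control mimic hearts early after MI.

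Gene-assigned reads numbered 19398196 to 23645308 per heart. None of the 8 cardiomyocyte markers examined was at 0 in any heart. One library stood apart within its group: between miR-19a/19b heart 3 and the other miR-19a/19b hearts the chi-square per degree of freedom was 121 and 135, against 10.3 to 26.6 for the other within-group pairs. That heart also had the lowest summed cardiomyocyte markers, at 281228 normalized counts against 460443 to 834913 in the others. In miR-19a/19b heart 1, 6 skeletal muscle genes summed to 2282 normalized counts, against 28.3 to 69.2 elsewhere. For the 8 genes, values without these hearts are given where they change a result. The tests of the marker lists were not repeated without them.

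The injected agents are shown first because their seed, bases 2 to 8 from the 5′ end and in capitals below, is the part of a microRNA that pairs with target transcripts. The mature mouse sequences come from RefSeq (GRCm38.p6), where miR-19a-3p lies at chr14:115044048-115044070 on the plus strand and miR-19b-3p at chr14:115044358-115044380 (plus strand) and chrX:52741991-52742013 (minus strand).
mmu-miR-19a-3p: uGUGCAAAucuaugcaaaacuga
mmu-miR-19b-3p: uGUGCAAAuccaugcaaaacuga
Both are 23 bases long and share the seed, and they differ by 1 substitution, U11C, with positions counted from the 5′ end and the miR-19a base given first.

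The longest annotated 3′ UTR of each chemokine and receptor gene (GENCODE M21, GRCm38) was searched on the transcript strand for the seed's complement, TTTGCAC, for its 6-base core followed by A, TTGCACA, and for TTTGCACA, which holds both. Such a match was found in 3 of the 8 genes and in 2905 of 15810 tested genes with a 3′ UTR (18.4%). The 3 matches lie in 3′ UTR exons of Ccl7, Ccr2 and Cx3cr1 and are in capitals below, with flanking bases in small letters. The whole printed stretches are at chr11:82047504-82047525 (Ccl7, plus strand), chr9:124107600-124107625 (Ccr2, plus strand) and chr9:120050296-120050321 (Cx3cr1, minus strand).
Ccl7 site: taaaatgtattTTTGCACAaaa
Ccr2 site: tttatacataaTTGCACAacacattt
Cx3cr1 site: aactctgttgcTTGCACAttggggag
The Ccl7 match covers bases 425 to 432 of a 435-base 3′ UTR, at its very end. Long UTRs hold such letters often: a match was present in 31.9% of 3′ UTRs of a length like that of Ccr2 (2701 bases), in 30.4% for Cx3cr1 (2587 bases) and in 5.16% for Ccl7. These letters were not in the 3′ UTRs of Ccl2, Ccl8, Ccl12, Ccr1 and Cx3cl1. A match is a string of letters and does not show binding.

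For Ccr2, Cx3cl1 and Ccl8 the highest miR-19a/19b heart was below the lowest control heart, and the group means differed by -30.8%, -28.3% and -29.1% of the control mean. Cx3cr1 was lower on average with overlapping groups, and Ccl2, Ccl7, Ccl12 and Ccr1 varied more among the hearts of a group than between the groups. None of the 8 passed limma's test at an adjusted p under 0.05 over 21126 genes, nor did any other gene (0%), and the smallest adjusted p of any gene was 0.396. At an unadjusted p under 0.05, 3 of the 8 (Ccl8, Ccr2 and Cx3cl1) were lower and 0 higher, where 2.63% of all tested genes were lower (555 genes) and 1.39% higher (293 genes). Every miR-19a/19b heart lay below every control heart for 3 of the 8 and for 5.3% of all tested genes, and above for 0 of the 8 and for 3.9% of all. The log2 fold change was negative for 8 of the 8 and for 49.2% of all tested genes, with medians of -0.29 and 0.0041. It was negative for 7 of the 8 with DESeq2, edgeR or limma-voom and without control heart 1, for 5 of the 8 without control heart 2 and for 4 of the 8 without miR-19a/19b heart 1. The genes had been chosen with earlier results of these data known, so these counts are descriptions.

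On recovered reads, edgeR and limma-voom likewise called 0 genes, while DESeq2's Wald test called 27 lower (0.105% of those tested) and 1 higher, Cx3cl1 being among the lower ones. Without miR-19a/19b heart 3, limma called 154 genes lower (0.729%), with Ccr2 and Cx3cl1 among them, and 361 higher. At an unadjusted p under 0.05, 4 of the 8 genes were lower without that heart, beside 6.12% of all tested genes, and 4 of the 8 without control heart 2, beside 1.76%.

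Ccl2, the ligand most used to recruit Ccr2-positive monocytes, lies at chr11:82035571-82037453 (plus strand, ENSMUSG00000035385). Its normalized counts were 636, 858 and 390 in the control hearts 1 to 3 and 330, 741 and 848 in the miR-19a/19b hearts 1 to 3. Both groups held hearts near the bottom and near the top of the range, and they overlapped over nearly all of it. The means were 628 ± 234 (SD, n = 3) and 640 ± 273 (SD, n = 3), and the log2 fold change was -0.011 (SE 0.37, 95% interval -0.86 to 0.83, limma adjusted p = 0.9996). This interval takes in a change of either sign, so equal levels were not shown.

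Ccl7, a second strong Ccr2 ligand that Ccr1 also binds, lies next to Ccl2 at chr11:82045712-82047525 (plus strand, ENSMUSG00000035373). It measured 759, 1195 and 352 normalized counts in the control hearts and 335, 792 and 898 in the miR-19a/19b hearts. The highest and the next-to-lowest values were both control hearts. Means were 769 ± 421 and 675 ± 299 (SD, n = 3 each), with a log2 fold change of -0.14 (SE 0.47, 95% interval -1.20 to 0.92).

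Ccl12, a mouse Ccr2 ligand related to Ccl2, lies at chr11:82101845-82103400 (plus strand, ENSMUSG00000035352). Its values were 224, 327 and 208 normalized counts under control mimic and 133, 265 and 286 under miR-19a/19b mimic. One miR-19a/19b heart lay below all controls and the other two lay within the control range. The log2 fold change was -0.20 (SE 0.29), and the means of 253 ± 64.3 and 228 ± 82.7 (SD, n = 3 each) were closer than either SD. Leaving out miR-19a/19b heart 1 turned the log2 fold change of Ccl2, Ccl7 and Ccl12 to 0.41, 0.30 and 0.15, and leaving out control heart 2 turned them to 0.25, 0.26 and 0.00083. The sign of these 3 differences therefore rested on single hearts.

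Ccl8, the last ligand of the cluster (chr11:82115185-82116799, plus strand, ENSMUSG00000009185), is a chemokine made chiefly by macrophages. It had 421, 488 and 397 normalized counts in the control hearts and 331, 303 and 291 in the miR-19a/19b hearts. The lowest control heart stood 65.7 normalized counts above the highest miR-19a/19b heart, so the groups did not overlap. Means were 435 ± 47.1 and 309 ± 20.6 (SD, n = 3 each), a log2 fold change of -0.49 (SE 0.12, 95% interval -0.77 to -0.22, limma adjusted p = 0.877). All 4 ligand genes lie within 81.2 kb, yet Ccl8 did not share the wide spread of its neighbours: its highest control heart was 1.23 times its lowest, against 2.20 for Ccl2, 3.39 for Ccl7 and 1.57 for Ccl12.

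**Figure D1:**
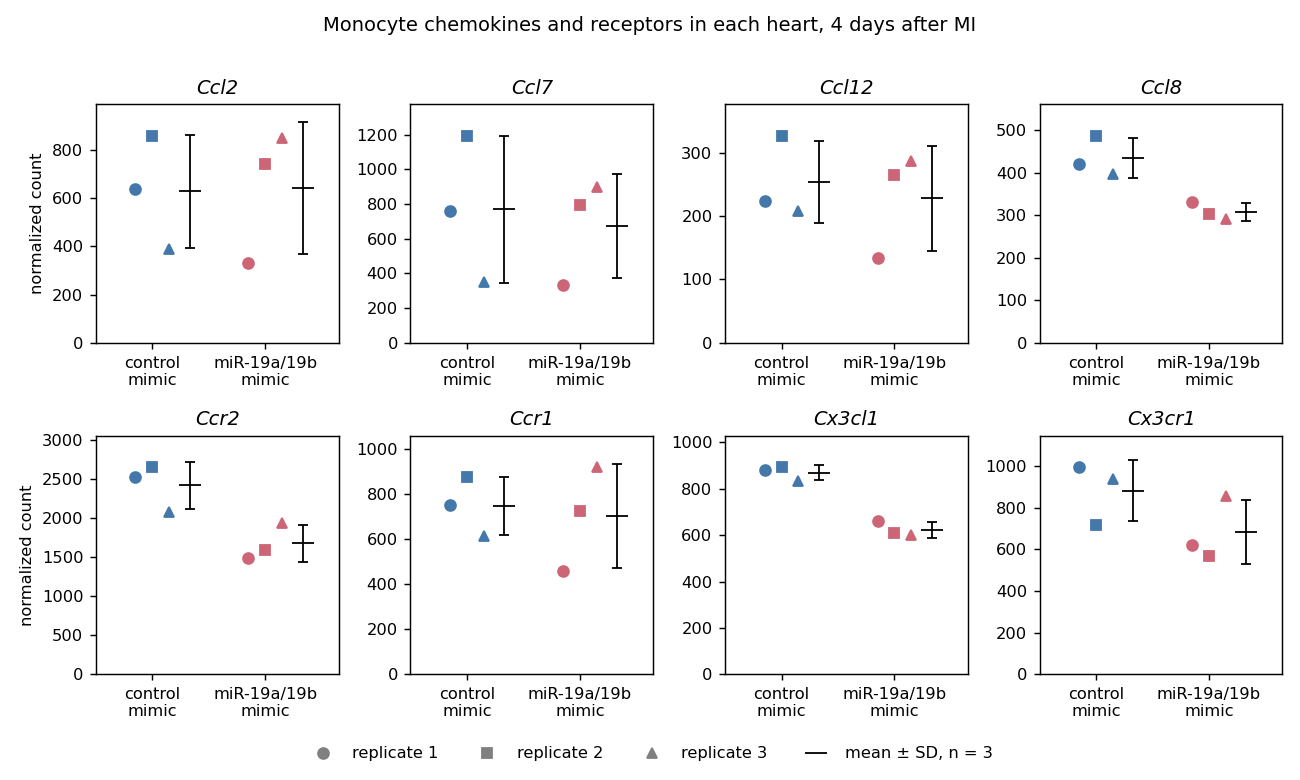
Normalized counts (vertical axes, from 0) of the 8 genes in each control mimic (blue) and miR-19a/19b mimic (red) heart, with marker shapes for replicates and bars for mean ± SD (n = 3). The groups are apart for Ccl8, Ccr2 and Cx3cl1 and overlap for the other genes.

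Ccr2 (chr9:124101950-124113557, plus strand, ENSMUSG00000049103) is a receptor for Ccl2, Ccl7 and Ccl12. It measured 2525, 2652 and 2079 normalized counts in the control hearts and 1489, 1593 and 1942 in the miR-19a/19b hearts. All miR-19a/19b hearts were below all controls, with a gap of 137 normalized counts between the nearest hearts. The mean was 1674 ± 237 against 2419 ± 301 (SD, n = 3 each), and the log2 fold change was -0.53 (SE 0.14, 95% interval -0.84 to -0.22, limma adjusted p = 0.886). Without miR-19a/19b heart 3, the nearest to the controls, it was -0.64 with an adjusted limma p of 0.0216.

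Ccr1 (chr9:123962126-123968692, minus strand, ENSMUSG00000025804) binds Ccl7 and several inflammatory chemokines outside this set and is carried by monocytes, macrophages and neutrophils. Its values were 754, 876 and 616 normalized counts in the control hearts and 462, 727 and 921 in the miR-19a/19b hearts. The lowest and the highest hearts were both of the miR-19a/19b group, so the control range lay inside the other. The means, 749 ± 130 and 703 ± 231 (SD, n = 3 each), gave a log2 fold change of -0.13 (SE 0.24, 95% interval -0.67 to 0.41), which turned to 0.14 without miR-19a/19b heart 1. Ccr1 and Ccr2 lie within 151 kb of each other.

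Cx3cl1 (chr8:94772009-94782423, plus strand, ENSMUSG00000031778) had the tightest values of the set. The control hearts measured 881, 894 and 833 normalized counts and the miR-19a/19b hearts 661, 608 and 600. The nearest hearts of the groups were 173 normalized counts apart, several times the spread inside either group. Means were 869 ± 31.9 and 623 ± 32.9 (SD, n = 3 each), with a log2 fold change of -0.48 (SE 0.096, 95% interval -0.70 to -0.26, limma adjusted p = 0.632). DESeq2 on recovered reads gave the same size of difference, -0.48, with an adjusted p of 0.0266, and limma without miR-19a/19b heart 3 gave an adjusted p of 0.0355, so the call depended on the test and on that heart, while over all alternatives tried the log2 fold change remained negative. Endothelial markers, from a cell type that makes Cx3cl1, summed to 27868 to 35172 normalized counts in the control hearts and 30205 to 31763 in the miR-19a/19b hearts, and 0 of the 8 passed at an unadjusted p under 0.05 (median log2 fold change -0.0088).

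Cx3cr1 (chr9:119901616-120068283, minus strand, ENSMUSG00000052336) measured 995, 714 and 935 normalized counts under control mimic and 623, 566 and 855 under miR-19a/19b mimic. The miR-19a/19b hearts 1 and 2 lay below all controls, and heart 3 lay above control heart 2. Means were 881 ± 148 and 681 ± 153 (SD, n = 3 each), and the log2 fold change of -0.38 (SE 0.18, 95% interval -0.79 to 0.027) had a limma adjusted p of 0.9996 and missed the unadjusted threshold as well. That miss rested on single hearts: Cx3cr1 passed the unadjusted threshold without miR-19a/19b heart 3 (log2 fold change -0.55, limma adjusted p = 0.0587) and without control heart 2 (-0.52, limma adjusted p = 0.9999). The annotated span of Cx3cr1 holds 8 other genes and that of Ccl2 overlaps 1, but none shares exonic bases with either.

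Proteases known to cut Cx3cl1 from the membrane were also measured, and 1 of 3 was lower at an unadjusted p under 0.05, beside 2.63% of all tested genes. Ctss (cathepsin S) had means of 16329 ± 2114 and 12190 ± 2809 normalized counts (SD, n = 3 each), a log2 fold change of -0.44 (SE 0.19, limma adjusted p = 0.9996). Adam10 and Adam17, the main sheddases, had log2 fold changes of -0.12 and -0.07, neither past the unadjusted threshold.

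**Figure D2:**
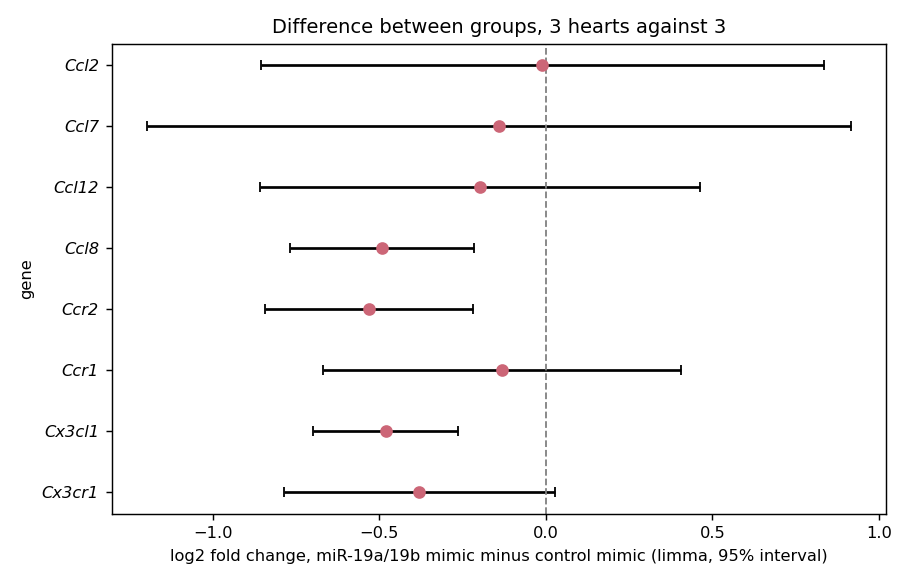
Log2 fold change of each gene (horizontal axis, miR-19a/19b mimic minus control mimic) with its 95% interval from limma, with the dashed line at no difference. The intervals of Ccl8, Ccr2 and Cx3cl1 lie below 0 and those of the other genes include it, before adjustment over all genes.

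Several of the genes put the hearts in like orders. Ccl2, Ccl7 and Ccl12 put the 6 hearts in one and the same order, from miR-19a/19b heart 1 at the bottom through control heart 3, control heart 1, miR-19a/19b heart 2 and miR-19a/19b heart 3 to control heart 2 at the top. Ccr1 followed it closely, with the same heart lowest and miR-19a/19b heart 3 highest. Ccl8 and Cx3cl1 shared another order, with the 3 control hearts above the 3 miR-19a/19b hearts and miR-19a/19b heart 3, high for Ccl2, now the lowest. Ccr2 had the groups apart as well, but within the miR-19a/19b group it put heart 3 highest, as Ccl2 did. Cx3cr1 had an order of its own, with miR-19a/19b heart 2 lowest, then miR-19a/19b heart 1, control heart 2, miR-19a/19b heart 3, control heart 3 and control heart 1. These orders come from 6 hearts and share their libraries, and no test was made of them.

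**Figure D3:**
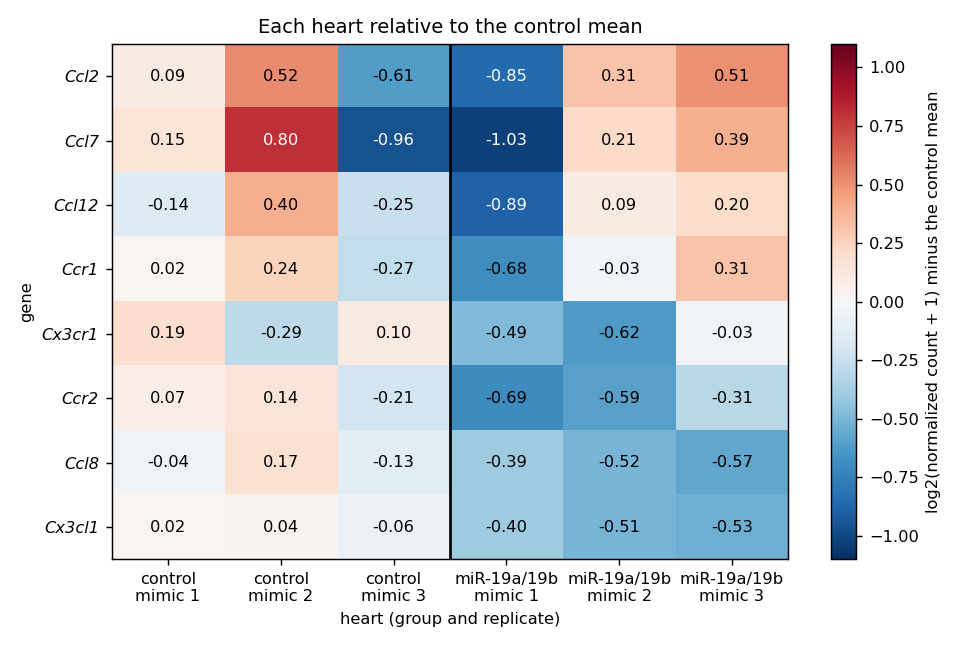
Log2(normalized count + 1) of each gene (rows) in each heart (columns) minus the mean of the control hearts, red above and blue below it, with the value in each cell. The upper 4 genes vary within both groups, from -1.03 to 0.80 for Ccl7, while for the lower 3 all miR-19a/19b hearts are below all control hearts.

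Divided by gene length, the ligands of the chromosome 11 cluster were the most abundant. Mean control levels in normalized counts per kb were 960 for Ccl7, 852 for Ccl8, 552 for Ccl2, 472 for Ccl12, 378 for Ccr2, 264 for Ccr1, 236 for Cx3cr1 and 234 for Cx3cl1. Of the neighbours in this order, the ranges over the 3 control hearts were apart only for Ccl8 over Ccl2 and Ccr2 over Ccr1. In the miR-19a/19b hearts the mean levels per kb were 843 for Ccl7, 604 for Ccl8, 562 for Ccl2, 425 for Ccl12, 262 for Ccr2, 248 for Ccr1, 182 for Cx3cr1 and 168 for Cx3cl1. The order of the means was the same, and all neighbouring ranges overlapped.

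In bulk tissue, fewer cells of a type and less RNA per cell cannot be told apart. The receptors were also set against the summed normalized counts of 10 macrophage markers in the same heart. This ratio does not separate cell number from RNA per cell, since Ccr2 marks classical monocytes and the sum is of macrophage markers. Lyz2 alone had a control mean of 38410 normalized counts, against 93176 for the 10 markers. The log2 ratio of Ccr2 to these markers was -5.12, -5.27 and -5.42 in the control hearts and -5.58, -5.70 and -5.82 in the miR-19a/19b hearts. The groups did not overlap, and the ratio was lower by a mean log2 difference of -0.43 (exact two-sided permutation p = 0.1, the smallest that 3 against 3 hearts can give, and 0.4 adjusted over 4 ratios). For Cx3cr1 the difference in log2 ratio was -0.28 (exact permutation p = 0.3, adjusted 0.6) and for Ccr1 -0.028 (exact permutation p = 0.8, adjusted 0.8), both with overlapping groups. The log2 ratio of Ccr2 to Cx3cr1 differed by -0.15 (exact permutation p = 0.7, adjusted 0.8). Without Lyz2, C1qa, C1qb and C1qc among the markers, the difference for the ratio of Ccr2 to macrophage markers was -0.35.

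**Figure D4:**
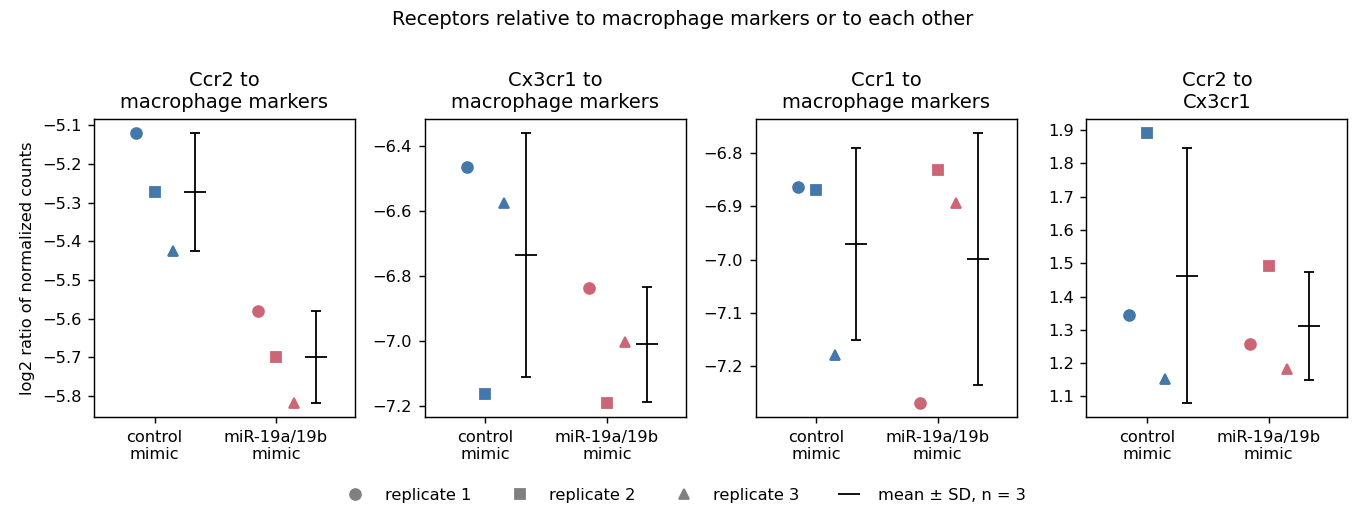
Log2 ratio of each receptor to the summed macrophage markers, and of Ccr2 to Cx3cr1, in each heart (vertical axes differ and do not start at 0), with mean ± SD (n = 3). The groups are apart for Ccr2 to macrophage markers, -5.42 or above against -5.58 or below, and overlap in the other panels.

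Markers of classical monocytes, the cells that carry Ccr2, were mostly on the same side as Ccr2. At an unadjusted limma p under 0.05, 4 of 8 such markers were lower, beside 2.63% of all tested genes, and 0 higher, beside 1.39%. For 5 of the 8 all miR-19a/19b hearts were below all controls, beside 5.3% of all tested genes. These shares also stand beside the counts of the lists that follow. The median log2 fold change was -0.51. Ly6c2, whose product is part of the Ly6C surface antigen, measured 818, 748 and 465 normalized counts in the control hearts and 148, 268 and 176 in the miR-19a/19b hearts. Its log2 fold change was -1.77 (SE 0.26, limma adjusted p = 0.396). Ms4a4c and Plac8, which are also high in these monocytes, had log2 fold changes of -1.03 and -0.92, with adjusted limma p of 0.522 and 0.632. Hp and Vcan had smaller log2 fold changes of -0.25 and -0.19, neither past the unadjusted threshold, and F10 had a positive one of 0.12. The summed list had 8265 to 10063 normalized counts in the control hearts and 5375, 6820 and 8630 in the miR-19a/19b hearts 1 to 3. The groups overlapped only through miR-19a/19b heart 3, the library that stood apart. The part of cell number in the level of Ccr2 was not tested.

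Of 6 non-classical monocyte markers, set beside Cx3cr1, 3 were lower and 0 higher at an unadjusted p under 0.05, with a median of -0.40. Spn, the sialoprotein CD43, had 332 ± 4.77 and 207 ± 25.7 normalized counts (SD, n = 3 each), a log2 fold change of -0.69 (limma adjusted p = 0.547). Itgal and Cd300e had log2 fold changes of -0.67 and -1.28, and Cd300e was low, with control and miR-19a/19b means of 31.5 and 12.5 normalized counts. In contrast, Treml4 had -0.14, not past the unadjusted threshold, and Nr4a1, the factor that these monocytes need, had 0.12. The sum of the 6 markers ranged from 4965 to 5711 normalized counts in the control hearts and from 4058 to 5550 in the miR-19a/19b hearts. Most of this sum was Ace, with control and miR-19a/19b means of 3950 and 3756, a gene that endothelial cells also express.

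Of the general macrophage markers, 0 of 10 were past an unadjusted p of 0.05, and the median log2 fold change was -0.14. Their sums were 87809 to 102464 normalized counts in the control hearts and 71250, 82817 and 109618 in the miR-19a/19b hearts 1 to 3, so hearts 1 and 2 lay below all controls and heart 3, the library that stood apart, above them all. Adgre1 (F4/80) had a log2 fold change of -0.29 and Lyz2 of -0.06. Markers of resident macrophages were on the other side: 7 of 7 had a positive log2 fold change, median 0.30, and 1, the scavenger receptor Cd163, was higher at an unadjusted p under 0.05 (log2 fold change 0.61, limma adjusted p = 0.9996). Their sum ranged from 10919 to 12129 normalized counts in the control hearts and from 12733 to 13151 in the miR-19a/19b hearts, without overlap. Most of this sum was Gas6 and Mrc1, neither past the unadjusted threshold. Their control and miR-19a/19b means were 5713 and 6172 for Gas6 and 3360 and 3492 for Mrc1. Taken singly, 1 of the 7 markers, Cbr2, had every miR-19a/19b heart above every control heart, beside 3.9% of all tested genes. The groups overlapped for Cd163. Timd4, a defining marker of long-lived resident macrophages, was low in both groups, at 10.9 ± 5.54 and 14.2 ± 3.15 normalized counts (SD, n = 3 each).

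T and NK cell markers, from cells that also make Ccl5, had a negative log2 fold change in 10 of 10, with a median of -0.72 and 3 lower at an unadjusted p under 0.05. They summed to 277 to 474 normalized counts in the control hearts and 189 to 235 in the miR-19a/19b hearts, without overlap.

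Among 12 other CC chemokine ligands tested of 13 in the list, 1 was lower and 1 higher at an unadjusted p under 0.05, and the median log2 fold change was -0.014. Ccl5, a ligand of Ccr1 known from T cells, measured 107, 129 and 88.8 normalized counts in the control hearts and 52.7, 45.4 and 64.0 in the miR-19a/19b hearts. All miR-19a/19b hearts were below all controls, with a log2 fold change of -0.99 (SE 0.21, limma adjusted p = 0.791). Ccl24, an eotaxin that acts through Ccr3, was low, at 34.3, 6.83 and 27.1 against 24.7, 80.4 and 72.6 normalized counts, and the groups overlapped (log2 fold change 1.44, SE 0.62, limma adjusted p = 0.9996). Ccl6 and Ccl9, myeloid ligands of Ccr1, had the highest normalized counts of the list, 4378 ± 480 and 3774 ± 407 (SD, n = 3 each) under control mimic, and log2 fold changes of 0.09 and -0.06.

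Of 6 other CC receptors tested of 7, 1 was lower at an unadjusted p under 0.05. The atypical receptors, which bind chemokines without G protein signalling, gave 0 of 5 past the unadjusted threshold. Ackr2, a scavenger of inflammatory CC chemokines including Ccl2, had a log2 fold change of -0.24.

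Downstream of the receptors, 0 of 21 genes for G protein subunits, arrestins, receptor kinases and migration factors passed the unadjusted threshold, although 18 had a negative log2 fold change (median -0.10). Gnai2, the G protein alpha subunit through which chemokine receptors signal, had a log2 fold change of 0.08, and Ptk2b, a kinase acting in chemokine-driven migration, of -0.30. Of 18 tested genes known to act upstream of chemokine expression (19 in the list), 2 were lower and 0 higher at an unadjusted p under 0.05. Among the lower ones, Csf1, the macrophage growth factor, had very even values, 2367 ± 19.5 and 2002 ± 15.5 normalized counts (SD, n = 3 each), and a log2 fold change of -0.24 (limma adjusted p = 0.9996). The NF-kB genes Nfkb1 and Nfkbia, from a pathway that drives Ccl2, had -0.10 and 0.19.

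**Figure D5:**
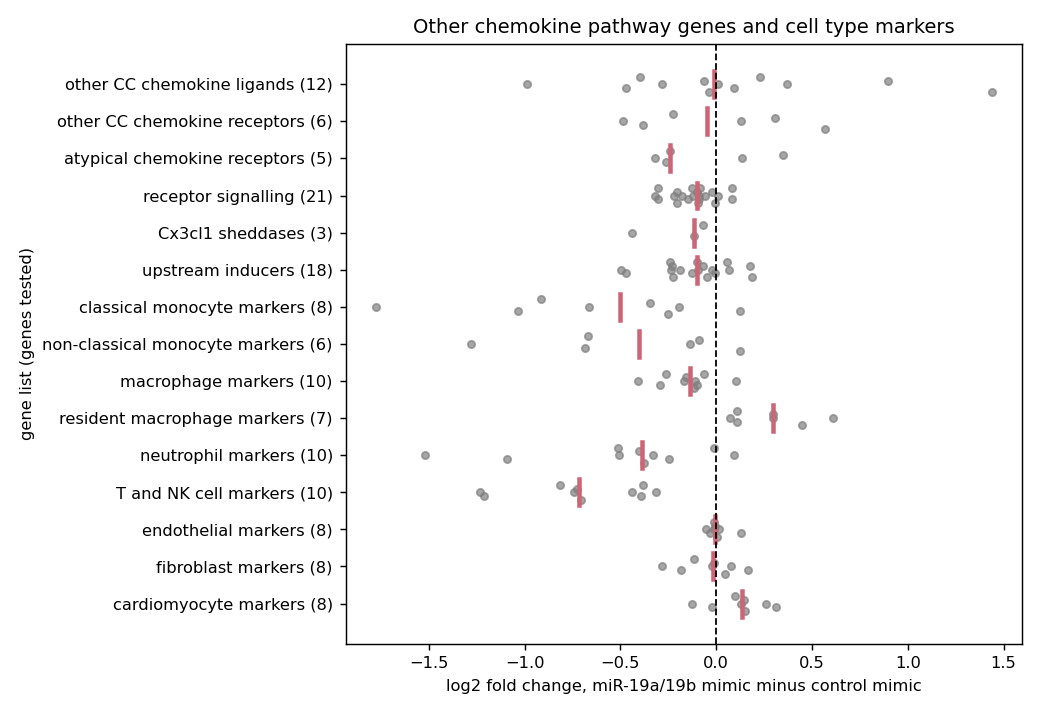
Log2 fold changes (horizontal axis, miR-19a/19b mimic minus control mimic) of every tested gene of each list (grey points) with the list's median (red bar) and the number of genes tested in brackets. The medians lie lowest for T and NK cell (-0.72) and classical monocyte markers (-0.51) and highest for resident macrophage markers (0.30).

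Over the 6 hearts and among 11608 other genes with a mean of at least 100 normalized counts, the genes whose log2 values ran most like each member were named by Pearson's r, as a description. For Ccl8 they were Jak2 (r = 0.999), a kinase of interferon and cytokine receptors, Traf3 (0.997) and Nmt1 (0.992), and for Cx3cl1 they were Csf1 (0.990), Thap1 (0.985) and Jak2 (0.980). For Ccr2 they were Pvrl4 (0.990), the interferon-gamma receptor chain Ifngr1 (0.987) and F730043M19Rik (0.984). For these 3 genes the groups stand apart, so any gene with the same group difference gives a high r. The closest gene was Elp6 for Ccl2 (0.994), Serpina3g for Ccl7 (0.987), B4galt5 for Ccl12 (0.988) and Prkar1b for Cx3cr1 (0.995). The points share their libraries, and no p is attached to these values.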

How the data were processed

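RNA-seq values of 6 hearts (3 per group, 3 biological replicates according to the methods) were used. The deposited table holds normalized counts, a signal that the authors obtained by dividing gene counts by size factors, beside each gene's length. According to the submitters' processing notes STAR 2.5.1b, HTSeq 0.6.0 and DESeq2 1.10.1 were used, and the methods name edgeR. The notes name mm9, but 82.7% of the 25884 genes found in GENCODE M21 (GRCm38) had the same start and end there, so coordinates are given as GRCm38. Whether counting used strand is not given in the sources used here. Columns of the authors' own comparison (fold changes and p-values) and the list of differing genes were not used.

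Whole reads were recovered by the step of 1 read in each heart (100% of values whole within 0.1 read). The main test was limma 3.58.1 (R 4.3.3; lmFit and eBayes with a trended prior, two-sided) on log2(normalized count + 1) over 21126 genes with a mean of at least 1, with Benjamini-Hochberg adjustment. Fold changes on this scale understate those of low genes. DESeq2 1.42.0, edgeR 4.0.16 with TMM and limma-voom on recovered reads, other filters (none, or at least 10 in every heart), a pseudocount of 0.1, a replicate block and leaving out each heart were alternatives. The limma, DESeq2, edgeR and limma-voom tests were tried on simulated data that held no outlying heart. The permutation test and the replicate block were not tried in this way. Ratios were compared by exact permutation (scipy 1.17.1).

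The members and gene lists were chosen with earlier results of these data known. Named genes were the 8 members and, of each list, the 3 genes with the smallest unadjusted p and the 3 with the highest mean. F10 and Treml4 were named in addition. For each member, the 3 genes with the highest Pearson correlation over the hearts were taken as most alike. Some genes that this rule names are not reported here.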

Additional observations from a re-analysis of the deposited data

How the results depend on the processing

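Of 104 alternative log2 fold changes of the 8 genes, 90 kept their sign and their side of the adjusted threshold, 3 passed it and 11 changed sign. Of 31 alternative ratios, 5 changed sign. DESeq2 called 27 genes lower and 1 higher and took Cx3cl1 (log2 fold change -0.48) past the threshold. Leaving out 1 heart gave 0 to 154 genes lower and 0 to 361 higher, the highest of both without miR-19a/19b heart 3. It gave log2 fold changes of -0.64 to -0.45 for Ccr2 and -0.52 to -0.45 for Cx3cl1, which both passed without that heart, and of -0.56 to -0.41 for Ccl8 and -0.55 to -0.26 for Cx3cr1, which did not pass the adjusted threshold.

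Signs changed for differences near 0. Ccl2 was 0.029 by DESeq2, 0.032 by edgeR and 0.0045 by limma-voom. Leaving out 1 heart gave -0.32 to 0.41 for Ccl2, -0.62 to 0.30 for Ccl7, -0.40 to 0.15 for Ccl12 and -0.35 to 0.14 for Ccr1. The log2 ratio of Ccr1 to macrophage markers differed by -0.13 to 0.11 with 1 heart left out and by 0.047 without Lyz2, C1qa, C1qb and C1qc in the list. The ratio of Ccr2 to Cx3cr1 differed by -0.31 to 0.063. For these, the cause was not tested.

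The sample titles number the replicates and name no pairing of hearts. Deviations of same-numbered hearts from their group means had correlations of 0.056, -0.34 and -0.45 over 11609 genes, and those of differently numbered hearts reached 0.49. With means of 3 hearts such correlations cannot settle whether the numbers pair the hearts. With the number as a replicate block, limma called 0 genes and the difference for Cx3cl1 remained -0.48. At an unadjusted p under 0.05 limma then gave 434 genes lower and 207 higher, of 21126 tested. Among the lower ones were 4 of the 8 members, Cx3cr1 beside Ccl8, Ccr2 and Cx3cl1.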

Other observations

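Cell types that were not set beside a chemokine or receptor above are given here as values. Neutrophil markers, from cells that use Ccr1, had a negative log2 fold change in 9 of 10 (median -0.39), and 1, Retnlg, was lower at an unadjusted limma p under 0.05 (log2 fold change -1.52, adjusted p = 0.9996). Their sum ran from 2102 to 2776 normalized counts in the control hearts and from 1158 to 3636 in the miR-19a/19b hearts, which held both the lowest and the highest heart. The lowest was miR-19a/19b heart 1 and the highest miR-19a/19b heart 3. The same held for Ccr1, but also for the summed macrophage markers and the summed other CC chemokine ligands, so it was not particular to neutrophil markers. Fibroblast markers gave 0 of 8 past the unadjusted threshold with a median of -0.017, and cardiomyocyte markers 0 of 8 with a median of 0.14.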
